A study of Mus musculus with 12 samples.

Results

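The MIWI immunoprecipitation (IP) from Miwi -/- late spermatocytes was compared with its own input RNA. The labels give 12 mouse samples of ribosomal-RNA-depleted RNA, 2 for IP and 2 for input in each genotype, which were Miwi -/-, Miwi +/- and Miwi ADH/-. The deposited values are 6 columns, 1 for each genotype and kind of RNA, in RPKM, a read count divided by gene length and by the reads of the column. With 1 column per group there is no replicate spread and no test, and every difference below is one between these columns. Of the 20345 listed genes, the 12246 with at least 1 RPKM in at least 2 of the 6 columns were compared. Per the labels' protocols Trizol was used on whole testes or on FACS-purified cells, without saying which sample had which source.

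MIWI is the PIWI-family Argonaute protein that carries pachytene piRNAs, the small RNAs made in great amounts by meiotic male germ cells. PIWI proteins bind longer RNAs too, as precursors and as targets of their piRNAs. Earlier work describes ADH as an allele that changes the catalytic site that cuts targets, and Miwi ADH/- animals have no other copy. An IP from animals without the protein has no MIWI for the antibody to bind. The RNA such an IP recovers is the background of the procedure, for example RNA held by the beads, the tube or the antibody. Sources of this background cannot be told apart here. The genes are listed by Ensembl identifier without names, and the tables at hand pair none of these identifiers with a symbol. Neither the targeted gene nor the markers of late spermatocytes could therefore be checked, and genes are described by length, level and behaviour. Lengths were read from the steps in which RPKM values rise read by read, and stand in for RNA classes: genes under 300 bases for small RNAs, in part, and longer ones for mRNAs and long noncoding RNAs.

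The background IP had the fewest reads of the 6 columns and the smallest part of them in listed genes. Its steps gave a total of 4172540 reads, of which 761525 (18.3%) lay in listed genes, against 7102633 and 3810918 (53.7%) in its input. The other 2 IPs had 29.3% and 35.0% in listed genes and the other inputs 47.9% and 52.3%. In the background IP 1 read in a gene of 1000 bases was worth 0.240 RPKM, and 2897 of the compared genes (23.7%) had no read there. Of these, 201 had at least 10 RPKM in the input, and 142 of the 201 were shorter than 1000 bases. Among all 12246 compared genes, 342 were under 300 bases and 2739 had 300 to under 1000. A shorter gene has fewer reads at a given RPKM, so it is more easily at 0.

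Most RNAs were less abundant in the background IP than in the input. Differences are given as log2(RPKM + 1), IP minus input, a scale that understates changes near 1 RPKM. The median was -1.37, with quartiles across genes of -2.38 and -0.44. At 2-fold, 449 genes (3.67%) lay above the input and 7463 (60.9%) below it, so 5.67% of the genes that differed were higher. The 95% counting interval of the read ratio excluded equality for 425 and 7215 of them. Because the columns differ in the share of reads in listed genes, a common shift is part of every value. Measured from the median, 2885 genes (23.6%) were at least 2-fold higher and 3066 (25.0%) lower, which puts the higher share at 48.5%. Median-of-ratios scaling gave 2518 and 3782 (40.0% higher) and equal RPKM totals 2040 and 4406 (31.6%).

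**Figure D1:**
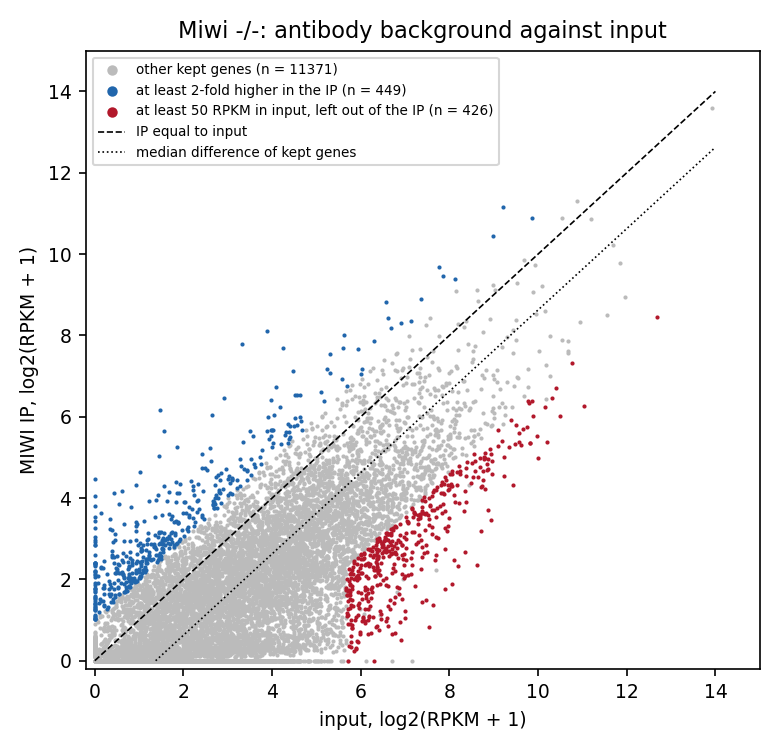
RPKM in the Miwi -/- IP against the Miwi -/- input for 12246 genes, each axis as log2(RPKM + 1), 1 point per gene. The 449 genes at least 2-fold higher in the IP lie above the dashed line of equality, and the 426 abundant genes left out of the IP lie along the lower right, far below the dotted line of the median difference.

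The IPs from animals with MIWI protein moved less from their inputs. The median log2 difference was -0.77 in Miwi +/- and -0.41 in Miwi ADH/-. In Miwi +/- 4.24% of genes were 2-fold higher and 40.6% lower, and in Miwi ADH/- 4.83% and 25.0%. From the median these shares were 15.4% and 15.5% in Miwi +/- and 12.0% and 13.4% in Miwi ADH/-. Differences spread more widely in Miwi -/-, with an SD across genes of 1.42 against 1.05 and 0.923, in the column with the fewest listed reads. The part of depth in this spread was not tested.

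Reads of the background IP were gathered in fewer genes than those of any other column. The most-read gene held 2.10% of its listed reads, the 10 most-read 8.88%, the 100 most-read 27.2% and the 1000 most-read 64.0%. In its input these shares were 0.952%, 4.92%, 18.1% and 55.7%. It took 471 genes to reach 50% of the listed reads of the background IP, and between 773 and 860 in the other 5 columns. For 90% it took 3736 genes, against 4524 to 4968. The fewer listed reads of this column limit the number of genes it can show, and their part in these counts was not tested.

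**Figure D2:**
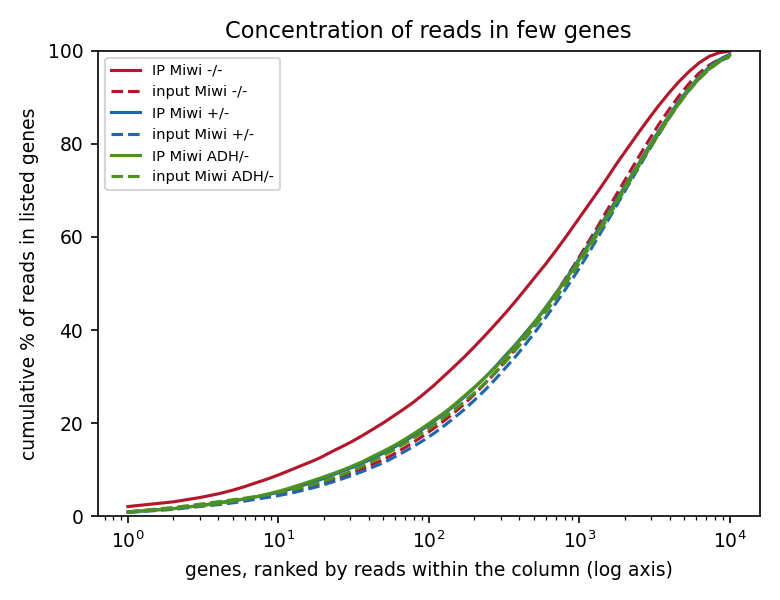
Cumulative percent of the reads in listed genes (vertical axis) over genes ranked by reads within each column (horizontal axis, log scale), for the IP (solid) and input (dashed) of the 3 genotypes. The Miwi -/- IP lies above the other 5 curves, with 27.2% of its listed reads in 100 genes.

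The most abundant RNAs of the background were largely those of the other IPs. Of the 100 genes with the most RPKM in the Miwi -/- IP, 65 were in the top 100 of the Miwi +/- IP and 56 in that of the Miwi ADH/- IP, but 39 in that of its own input. Of the top 1000, 730, 682 and 553 were shared. Over the 2639 genes with at least 20 RPKM in all inputs, Pearson's r of log2(RPKM + 1) was 0.814 with the Miwi +/- IP, 0.766 with the Miwi ADH/- IP and 0.576 with its own input. Across all 12246 genes it was 0.791, 0.754 and 0.731. These correlations are across genes, which are not independent replicates and share their lengths and base composition in every column. The log2 differences of Miwi -/- and Miwi +/-, which use no column in common, had r of 0.673 over the 2639 genes, and those of Miwi -/- and Miwi ADH/- 0.653, both below the 0.796 between Miwi +/- and Miwi ADH/-.

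By share of reads, which grows with gene length, most of the background lay in long RNAs. Genes of 1000 to under 2000 bases held 36.3% of the listed reads of the IP (35.3% of the input) and genes of 2000 to under 4000 bases 33.3% (31.3%). Genes of 4000 bases and more held 14.8% (12.6%). Genes of 300 to under 1000 bases held 13.9%, well under their 19.8% of the input. Genes under 300 bases held 1.77%, against 1.02%. As shares of summed RPKM, which allow for length, genes under 300 bases held 16.3% of the IP and 8.37% of the input, those of 300 to under 1000 bases 27.9% and 39.7%, and those of 4000 bases and more 3.71% and 2.98%. The direction of each of these 3 classes between IP and input was the same by either share. Counting error on the read shares is small, since each rests on 761525 and 3810918 reads. PCR copies are not independent molecules, so this and every interval here covers counting error only.

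Going from short to long mRNA-sized genes, recovery in the background rose over all compared genes. The summed reads of a class per column total, IP over input, were 0.239 in the class of 300 to under 1000 bases, 0.348 for the next class, 0.360 for 2000 to under 4000 bases and 0.395 for 4000 and more, with 0.338 over all. Median log2 differences ran the same way at -1.69, -1.49, -1.23 and -0.99. From the median of all genes they were -0.32, -0.12, 0.14 and 0.38, so the sign for the longest classes depends on the scale. The order of the 4 classes was the same under the scalings and pseudocounts run, but without the filter on low values the shortest of them, at -0.45, lay above the next 2, at -0.85 and -0.58. With the filter, the order was also the same in Miwi +/- (-0.32, -0.05, 0.14 and 0.35 from its median) and in Miwi ADH/- (-0.36, -0.03, 0.15 and 0.29). Longer genes also have more reads at a given RPKM, so that fewer of them were at 0: 53 of 1013 genes of 4000 bases and more had no read in the background IP, against 1044 of 2739 of 300 to under 1000 bases. Among genes of at least 50 RPKM in the Miwi -/- input the summed ratio did not keep the order, at 0.229, 0.332, 0.307 and 0.252. The median log2 differences of these genes did, at -3.07, -2.56, -2.22 and -2.20, with 44 genes in the longest class.

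**Figure D3:**
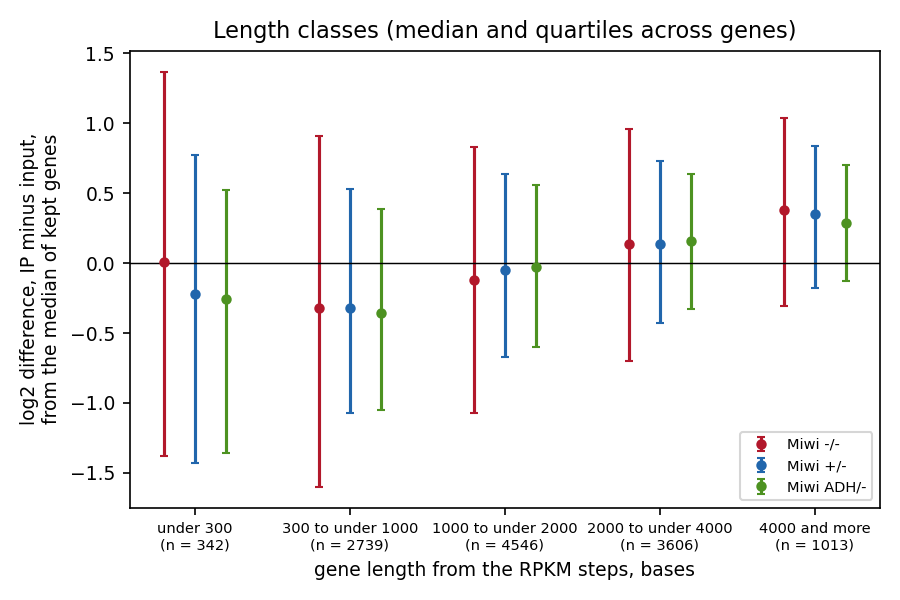
Median (point) and quartiles across genes (bars) of the log2(RPKM + 1) difference, IP minus input, from the median of all compared genes, for 5 length classes in 3 genotypes. From 300 bases up, medians rise with length in each genotype, from -0.32 to 0.38 in Miwi -/-, and the quartiles of neighbouring classes overlap.

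Genes under 300 bases take in small nucleolar RNAs (snoRNAs), which guide the modification of other RNAs, spliceosomal small nuclear RNAs (snRNAs), tRNAs and miRNA hairpins. Among mouse RefSeq genes spanning 100 to 199 bases 34.1% are snoRNAs and 34.0% snRNAs, 19.3% being pseudogenes, and among those under 100 bases 46.1% are miRNAs. At 200 to 299 bases 49.7% are pseudogenes, 3.83% snoRNAs and 1.28% snRNAs, so there the length says little of the class. Of the listed short genes with a whole length, 99 fall in that range. Of 325 listed short genes whose length came out whole, 87 (26.8%) measured 126 to 145 bases, the span of 20 bases that holds the most RefSeq snoRNAs, 802 of 1340 (59.9%). RefSeq genes of that span are snoRNAs in 82.3% of cases. These spans describe what such a length usually is and name no listed gene.

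The higher share of short RNAs in the background rested on very few genes. A 151-base gene was first in RPKM in both columns, at 12261 RPKM (IP) against 15469 RPKM (input), and held 7725 of the 13517 short-gene reads of the IP. In the other genotypes it had 13327 RPKM (IP) against 12655 RPKM (input) (Miwi +/-), and 20452 and 13326 (Miwi ADH/-). It was thus the first RNA of all 6 columns. Its IP level in RPKM was lowest in Miwi -/-, while its share of the listed IP reads was highest there, at 1.01% against 0.687% in Miwi +/- and 0.882% in Miwi ADH/-. Without it the share of short genes was 0.768% of the IP and 0.587% of the input. The summed short-gene reads per column total, IP over input, went from 0.590 with all 342 compared short genes to 0.437 without this gene and to 0.298 without the 3 most-read ones, which is below the 0.338 of all genes.

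A 168-base gene behaved differently between genotypes. It had 1907 RPKM in the background IP and 929 in the input, or 1337 and 1109 reads, a ratio of 2.05 (95% counting interval 1.89 to 2.22). In Miwi +/- it had 804 and 1077 RPKM and in Miwi ADH/- 519.8 and 978. It was above its input in the background IP and below it in both IPs with MIWI protein on the deposited scale. From the median of each genotype its log2 difference was 2.41, 0.35 and -0.50, so that the sign in Miwi +/- depends on the scale. A 134-base gene had 1871 against 2339.9 RPKM in Miwi -/-, 3141 against 1929.5 in Miwi +/- and 3086 against 2152 in Miwi ADH/-. From the medians its log2 differences were 1.05, 1.47 and 0.93, all above 0.

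Most other short genes were barely sampled. Of the 342, 211 had no read in the background IP, and their median log2 difference of -1.36 is close to that of all genes. The 91 compared genes of 126 to 145 bases had a median of -2.05 and 54 of them no IP read. ENSMUSG00000076309, of 79 bases, was the lowest of all genes with at least 10 RPKM in either column at a pseudocount of 1, while at 5 its difference of -4.87 lay above the -5.04 of ENSMUSG00000021606. It had no read in the IP and 79 reads (141 RPKM) in the input. Taking 3 reads in this gene, 9.10 RPKM, as the floor, it was at least 15.5-fold lower in the IP. It had 27.9 RPKM (IP) against 193 RPKM (input) in Miwi +/- and 69.4 and 187 in Miwi ADH/-, below input in each genotype.

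Recovery in the background fell with the abundance of an RNA. Genes were ordered by the geometric mean of their RPKM in the other 2 inputs, so that the Miwi -/- columns played no part in the order. They did play a part in who was compared. None of the 1230 genes under 1 RPKM reached 1 RPKM in both of those inputs. Each thus passed the filter with the help of an IP or of the Miwi -/- input. Of the 1230, 875 reached 1 RPKM in a Miwi -/- column, and 369 did so in the Miwi -/- IP. Passing through that IP raises the Miwi -/- difference of a gene, and passing through the Miwi -/- input lowers it. The net effect on the lowest bin was not tested. The median log2 difference fell from -0.45 for the 1230 genes under 1 RPKM to -0.97 at 1 to under 5, -1.74 at 10 to under 20, -2.37 at 50 to under 100 and -2.98 for the 276 genes at 200 RPKM or more. Summed reads per column total, IP over input, have no pseudocount and fell from 0.856 to 0.282 at 100 to under 200 RPKM, with 0.291 in the highest bin. They fell in the other genotypes as well, from 1.190 to 0.459 in Miwi +/- and from 1.350 to 0.599 in Miwi ADH/-. There the inputs that set the order are also those in the ratio, which by itself raises the ratio of genes that were low by counting error.

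**Figure D4:**
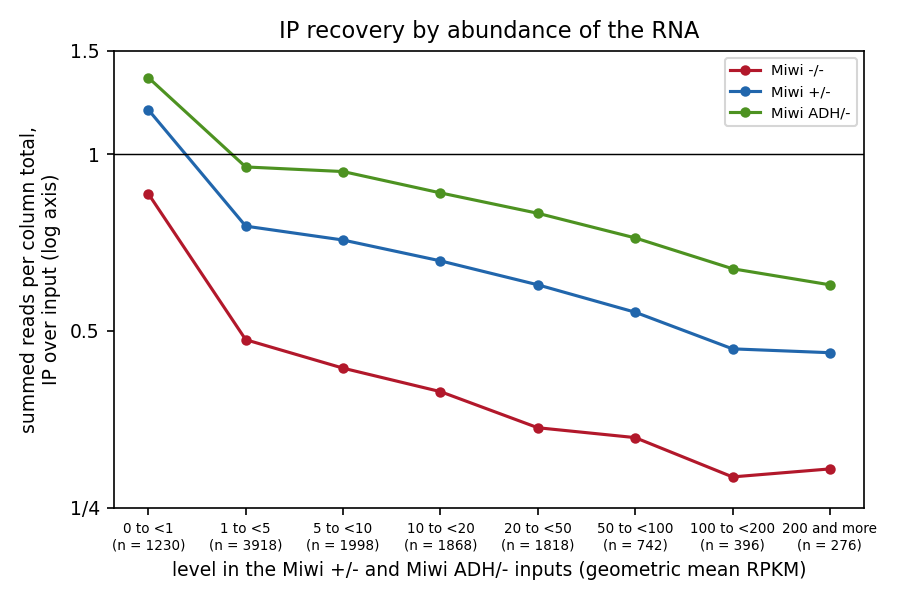
Summed reads per column total, IP over input (vertical axis, log scale), in 8 bins of the geometric mean RPKM of the Miwi +/- and Miwi ADH/- inputs (horizontal axis), for 3 genotypes. The Miwi -/- line is the lowest in every bin and runs from 0.856 to 0.291. The height of each line includes the share of reads in listed genes of its columns. Over all compared genes the ratios were 0.338 in Miwi -/-, 0.560 in Miwi +/- and 0.731 in Miwi ADH/-.

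Length and abundance both went with the difference. At 200 RPKM or more the median log2 difference was -3.20 over 162 genes of 300 to under 1000 bases, against -2.70 over 84 genes of 1000 to under 2000. At 10 to under 20 RPKM these medians were -2.10 and -1.73, and -1.54 for 136 genes of 4000 bases and more. At each level given, the short mRNA-sized class was the lowest.

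Many abundant mRNA-sized RNAs lay far below their input level in the background. Of 1497 genes of at least 300 bases with at least 50 RPKM in the Miwi -/- input, 426 (28.5%) lay at least 4-fold below the median difference. Over all compared genes the share was 9.26%, but with a pseudocount of 1 a gene needs 9.36 RPKM in the input to reach this difference. Among the 5172 genes with that level it was 21.9%, and by level in the other inputs it was 14.2% at 10 to under 20 RPKM and 19.4% at 20 to under 50. These are called left out here. Their median level was 107 RPKM in the input and 5.46 RPKM in the IP. The median of all compared genes in that IP was 1.62 RPKM, so left out means low against the input, not absent. The 426 held 630556 reads or 16.5% of the listed reads of the input, but 21178 reads or 2.78% of those of the IP. No more than 3 IP reads were found for 37 of them, and none for 2. Since they were chosen on this difference it is a description. The count depends on where the median of all genes lies and ranged from 204 to 800 of the 1497 over other pseudocounts, scalings and filters. A rule without pseudocount or median, chosen after seeing the data, asked for a share of listed reads at least 4-fold lower in the IP, and gave 416 genes, 404 of them among the 426. Both rules cut on the same columns in a similar way, so this overlap is no independent support.

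Short mRNA-sized genes were most often left out. This applied to 40.3% of the 549 abundant genes of 300 to under 1000 bases, 24.4% of the 632 of 1000 to under 2000, 17.6% of the 272 of 2000 to under 4000 and 6.82% of the 44 of 4000 and more. ENSMUSG00000021606, of 620 bases, had the lowest difference of the abundant genes. It had 0.774 RPKM (IP) against 185 RPKM (input), from 2 and 814 reads. The input level was 239-fold that of the IP, with a 95% counting interval of 66.0 to 1978. In Miwi +/- it had 40.3 and 167 RPKM and in Miwi ADH/- 61.0 and 163, so it was below input in each genotype, with the lowest IP level in Miwi -/-.

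The 15 abundant genes with the lowest differences had input levels of 78.1 to 396 RPKM and at most 4.13 RPKM in the background IP, from 10 reads or fewer. Of these 11 were under 1000 bases long, as were 549 of the 1497 abundant genes and 221 of the 426 left out. All 15 were at least 2-fold lower in the IP than in the input of Miwi +/-, and 14 were so in Miwi ADH/-. Of all compared genes 40.6% and 25.0% were lower in these genotypes, and of all abundant genes 65.2% and 42.0%. The exception was a 406-base gene with 4.13 RPKM (IP) against 396 RPKM (input) in Miwi -/-, 88.2 and 274 in Miwi +/-, and 282 and 276 in Miwi ADH/-. It was thus far below its input in the background and level with its input in the Miwi ADH/- IP.

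Of the 10 mRNA-sized RNAs with the most RPKM in the input, 9 were at least 2-fold lower in the background IP, where 85.8% of all 1497 abundant genes were. From the median 7 of the 10 were, where 58.1% of the 1497 were. A 583-base gene of the 10 held 0.383% of the listed reads of the IP and 0.359% of those of the input. The first of them, of 586 bases, had 6594 RPKM in the input and 347 in the IP, a 19.0-fold difference (17.8 to 20.4). In Miwi +/- it had 5455 and 656 RPKM and in Miwi ADH/- 7536 and 1512, and so was below its input in each genotype. A 389-base gene had 3673 RPKM in the input and 883 in the IP of Miwi -/-, 3290.4 and 3042 in Miwi +/-, and 2888 and 5438 in Miwi ADH/-. It was 4.16-fold below its input in the background and above it in the Miwi ADH/- IP. The gene of the 10 that was not lower had 547 bases, with 1873 RPKM in the input and 2526 in the background IP.

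The 426 left-out genes were also low in the IPs with MIWI protein, to a smaller extent. Their median log2 difference was -4.04 in Miwi -/-, -2.01 in Miwi +/- and -1.47 in Miwi ADH/-, or -1.24 and -1.07 from the median in the latter 2. In Miwi +/- 274 (64.3%) lay at least 2-fold below that genotype's median, against 15.5% of all compared and 31.1% of all abundant genes, and 60 (14.1%) at least 4-fold, against 2.99% and 5.01%. In Miwi ADH/- these were 235 (55.2%, against 13.4% and 24.6%) and 32 (7.51%, against 2.43% and 3.14%). Their median IP level was 26.0 RPKM in Miwi +/- and 38.3 in Miwi ADH/-, with input medians of 98.6 and 101 RPKM. All abundant genes tended the same way, with medians of -0.61 and -0.42 from those of all genes.

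**Figure D5:**
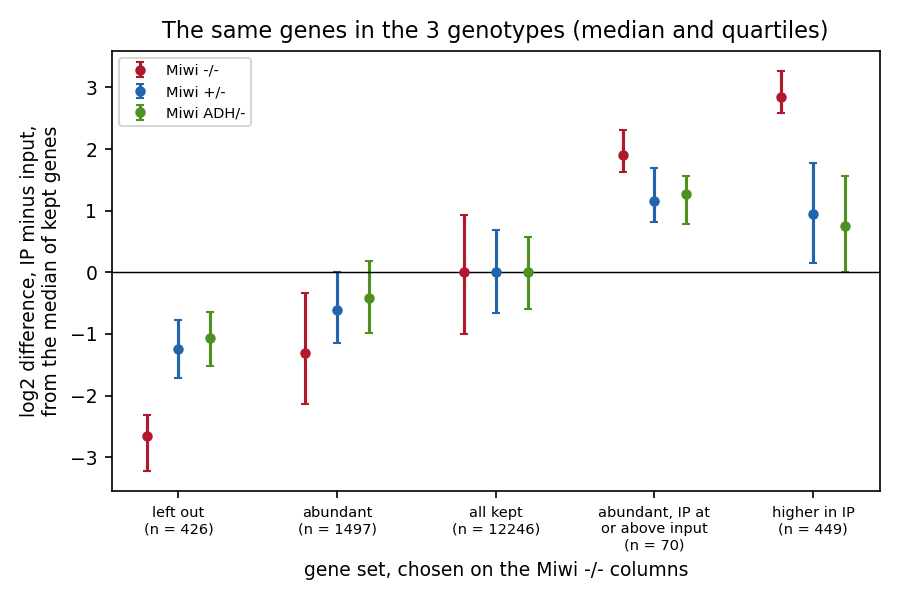
Median (point) and quartiles across genes (bars) of the log2(RPKM + 1) difference, IP minus input, from the median of all compared genes, for 5 gene sets chosen on the Miwi -/- columns, in 3 genotypes. The left-out genes sit below 0 in each genotype, with medians of -2.66, -1.24 and -1.07. The abundant genes kept at or above input sit above 0, with medians of 1.91, 1.16 and 1.27.

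On the deposited scale a small number of abundant mRNA-sized RNAs was retained. Of the 1497, 70 had an IP level at or above the input in Miwi -/-, 16 of them at least 2-fold higher (1.07%, against 3.67% of all compared genes). From the median, the scale used for left out, 109 of the 1497 (7.28%) were at least 2-fold higher, against 23.6% of all compared genes. By share of listed reads 137 (9.15%) were. In the columns that did not choose the 70, 53 of them (75.7%) were at or above the input in Miwi +/- and 65 (92.9%) in Miwi ADH/-, where 8.22% and 18.8% of all 1497 abundant genes were. The most-read gene of the background, of 1665 bases, had 2298 RPKM (IP) against 588 RPKM (input). It had 1675 and 666 RPKM in Miwi +/- and 1639.8 and 491 in Miwi ADH/-, above input in each genotype. Its 15960 reads were 2.10% of the listed reads of the background IP.

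The 5 abundant genes with the highest differences had 1029 to 1862 bases. All 5 were at least 2-fold above the input in each of the 3 genotypes. Of all compared genes 4.24% were so in Miwi +/- and 4.83% in Miwi ADH/-, and of all abundant genes 1.67% and 2.54%. All 5 had their highest IP level in Miwi -/-, which the choice of genes favours. The highest of them, of 1029 bases, had 452 RPKM (IP) against 94.1 RPKM (input) in Miwi -/-, 405 and 104 in Miwi +/-, and 292 and 51.7 in Miwi ADH/-. Its ratio of 4.80 (4.40 to 5.24) in the background lay between the 3.90 and 5.65 of the other genotypes.

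The 449 genes at least 2-fold higher in the background IP were mostly scarce RNAs of mRNA size. Their median level was 6.64 RPKM (IP) against 1.41 RPKM (input). They held 14.1% of the listed reads of the IP and 1.36% of those of the input. Fewer than 20 IP reads were found for 131 of them, and 53 had no input read. By length, 28 were under 300 bases, 119 had 300 to under 1000, 163 had 1000 to under 2000, 123 had 2000 to under 4000 and 16 had more. These were 8.19%, 4.34%, 3.59%, 3.41% and 1.58% of the compared genes of each class, against 3.67% of all. From the median of all genes the shares were 35.1%, 23.3%, 21.5%, 24.3% and 26.9%, against 23.6%. The shortest class thus had the highest share on both scales, while the order of the longer ones depends on the scale. Of all 12246 compared genes, 342 were under 300 bases.

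These genes were higher in the other IPs more often than genes at large, but most were not. In Miwi +/- 113 (25.2%) were at least 2-fold above the input, against 4.24% of all compared genes, and in Miwi ADH/- 131 (29.2%), against 4.83%. Their median log2 differences were 0.17 and 0.34, or 0.94 and 0.75 from the medians of those genotypes. The short ones fared differently from the long ones: the 28 under 300 bases had medians of -0.73 and -0.60, and the 16 of 4000 bases and more 0.94 and 1.01. Of the 449, 331 (73.7%) had their highest IP level in Miwi -/-, a share that the choice of genes favours. The shares of all compared genes are not matched for level, and the 449 were mostly scarce. Genes under 1 RPKM in the other inputs had summed reads per column total, IP over input, of 1.19 (Miwi +/-) and 1.35 (Miwi ADH/-). Over all compared genes these were 0.560 and 0.731. Genes could also pass the filter through IPs alone. The part of level and filter was not tested.

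ENSMUSG00000085210, of 3246 bases, had the highest difference of the genes with at least 10 RPKM in either column at a pseudocount of 1. With a pseudocount of 5 its difference was 3.48, below the 4.01 of ENSMUSG00000075014. It had 70.7 RPKM (IP) against 1.78 RPKM (input) in Miwi -/-, from 957 and 41 reads, a ratio of 39.7 (29.1 to 55.7). In Miwi +/- it had 26.0 and 2.43 RPKM and in Miwi ADH/- 21.2 and 2.30, and was thus above the input in each IP, most of all in the background.

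ENSMUSG00000075014, of 660 bases, had 220.4 RPKM (IP) against 8.96 RPKM (input) in Miwi -/-, a ratio of 24.6 (18.0 to 34.5). In Miwi +/- it had 19.3 and 6.07 RPKM and in Miwi ADH/- 14.5 and 8.83, so the inputs were near each other and the background IP stood apart. The value of the background IP came from 607 reads. Of the 10 highest, 6 had at most 4 input reads, and a 1538-base gene had 275 RPKM (IP) against 13.8 RPKM (input) in Miwi -/-, 112 and 18.5 in Miwi +/-, and 107 and 16.5 in Miwi ADH/-. It too was above its input in each genotype.

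At the edge of the filter, the last gene compared had a second-highest value of 1.0004 RPKM and a log2 difference of -1.73, and the first one not compared 0.99982 RPKM and -0.27. The 8099 genes not compared held 1.26% of the listed reads of the background IP and 0.713% of those of its input.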

How the data were processed

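RPKM values were used as deposited by the authors. Only the Miwi +/- columns name this unit, per the file headers, and the others step alike. TopHat, Bowtie and mm9 appear, per the submitters' processing notes, without version or role. How reads were counted, with which annotation, and how multiply mapped or stranded reads were treated, is not given in the sources used, nor whether a column is 1 sample or both of a group pooled. Short and repeated RNAs are most exposed to these choices.

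Reads were recovered as the smallest whole numbers that fit the RPKM steps of a gene across columns, within 0.002 reads plus 1e-07 of the number. This gave whole reads for all 17452 genes with values in 2 or more columns (100.0%), and the 2893 others were taken as 1 read. Depth ratios between columns were set from the most common ratio and then checked by parity, since a ratio wrong by 2 also gives whole numbers: over the 4605 genes with at least 20 reads in every column, 48.5% to 50.9% of reads were even. Reads of a gene that share a common factor in all columns come out too low, and its length too low by the same factor. Genes with a value in 1 column that had more than 1 read there also come out too short. Both move genes toward the shorter length classes. Column totals rest on lengths being whole: at the totals used 47.2% of 9475 lengths were. A total 0.500 times as large made 64.3% whole but put 107% of a column's reads in listed genes. Totals, lengths and length classes would change with such a factor, while RPKM, differences and ratios would not.

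Differences are log2(RPKM + 1), with a pseudocount of 1, among genes of at least 1 RPKM in at least 2 columns, counted at 2-fold. Abundant means at least 50 RPKM in the Miwi -/- input and at least 300 bases, and left out at least 4-fold below the median. The planned rule asked for protein-coding genes and gene types, which could not be assigned without names, so length was used instead. Ratios and shares have exact 95% Clopper-Pearson intervals, for counting error only. Genes described singly were those with the most RPKM or reads, the highest and lowest differences among genes of at least 10 RPKM in either column, and the extremes of the abundant genes; at most 2 identifiers higher and 2 lower are printed. The members, classes and rules were chosen with earlier results of these data known. Scripts were tested on simulated data. Python 3.11.15, numpy 2.4.6, pandas 2.3.3, scipy 1.17.1 and matplotlib 3.10.9 were used.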

Additional observations from a re-analysis of the deposited data

How the results depend on the processing

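No paired analysis was possible because each group has 1 column and no column carries a replicate number, so leaving out replicates and a replicate block were not run either. The 5 length classes are given from shortest to longest.

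With a pseudocount of 0.1, 695 genes were higher, 220 abundant genes were left out, and class medians were -3.09, -2.94, -2.34, -1.86 and -1.46. With 5, 155 were higher and 4498 lower, with medians of -0.56, -0.77, -0.72, -0.57 and -0.45. From the median of all genes, 2885 were higher and 3066 lower, with medians of 0.01, -0.32, -0.12, 0.14 and 0.38, so the first and the last 2 changed sign. Median-of-ratios scaling gave 2518, 3782, 204 left out and medians of -0.72, -0.74, -0.37, -0.04 and 0.29, and equal RPKM totals 2040, 4406, 228 and -0.85, -0.91, -0.55, -0.25 and 0.06, with the longest class reversed in both. Without a filter, 730 were higher and 800 left out, with medians of 0.00, -0.45, -0.85, -0.58 and -0.38. With at least 5 RPKM in either column these were 295, 215 and -2.29, -2.75, -2.03, -1.73 and -1.44. At 4-fold, 100 were higher and 4106 lower. Counting abundance from 100 RPKM left out 231 of 700 genes.

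As shares of summed RPKM, the classes held 16.3%, 27.9%, 34.9%, 17.2% and 3.71% of the IP and 8.37%, 39.7%, 33.4%, 15.5% and 2.98% of the input. Without the 10 most-read genes of the IP they held 0.835%, 12.6%, 36.0%, 35.0% and 15.6% of its reads, and 0.601%, 19.8%, 36.0%, 31.7% and 12.0% of those of the input. The 4 genes printed by identifier kept their direction under each scaling and pseudocount run. The cause of these movements was not tested.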
